A study of Mus musculus with 9 samples.

Results

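The genes described here are 10 components of Notch signalling and of the lineage decision it takes part in within the colonic epithelium: the receptors Notch1, Notch2 and Notch3, the ligands Jag1, Jag2, Dll1 and Dll4, and the transcription factors Hes1, Hes6 and Atoh1. They were taken by symbol from the table of counts, 10 of its 46095 symbols, and all 10 passed the filter on low counts. RNA-seq was performed on intestinal epithelial cells (IECs) released with EDTA from the colons of mice on a C57BL/6j background, 4 with the genotype Smad4 Vil-KO and 5 with Smad4 Vil-KO;Setd2 Vil-KO, called double knockout below. Villin-Cre, which is active in the epithelium of the whole intestine, was used to delete floxed alleles, those of Smad4 in both groups and those of Setd2 in the second only. Setd2 encodes the methyltransferase that trimethylates lysine 36 of histone H3. Both groups received the carcinogen azoxymethane (AOM, 10 mg/kg) at 8 weeks of age and 1 course of 2% dextran sodium sulphate (DSS), which damages the lining of the colon, and the IECs were taken at 10 days. Mice without the Smad4 deletion were not analysed here, and the comparison therefore asks what deleting Setd2 adds to deleting Smad4.

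Notch receptors are activated by Jagged and Delta-like ligands on neighbouring cells, after which a protease releases the intracellular domain of the receptor, which enters the nucleus and acts with RBPJ. In the crypt this turns on Hes1, a repressor of Atoh1, and keeps the cell on the absorptive path or in the stem cell state. Cells that escape the signal express Atoh1, the basic helix-loop-helix factor required for the secretory lineages, and display Delta-like ligands to their neighbours. Hes6 is a relative of Hes1 that opposes it.

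Of the 10 genes, Dll1 was the only one called as changed between the genotypes in the main fit, which used all 9 libraries without covariates. It rose 1.44-fold in double-knockout IECs, from 16.1 ± 1.87 CPM (normalized counts scaled by library size; mean ± SD, n = 4) to 23.2 ± 3.55 CPM (n = 5). This is 1 gene of 10 called higher and 0 called lower by edgeR's quasi-likelihood test at an adjusted p under 0.05, where 13.3% of all genes tested were called, 6.76% as higher and 6.54% as lower. For 0 of the 10 genes did the 2 groups not overlap, against 17.2% of all genes tested. At an unadjusted p under 0.05, 2 of the 10 were higher and 0 lower, against 30.6% of all genes in either direction. The log2 fold changes ran from -0.30 for Atoh1 to 0.79 for Notch3 with a median of -0.09, where the median over all genes was -0.000588. The call for Dll1 was lost, and a call of Atoh1 as lower appeared, when the comparison was restricted to the 6 libraries described next.

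The libraries held 12487129 to 17120202 counts, so that 1 count was worth 0.0593 to 0.0793 CPM. Setd2 lay between 99.0 and 119.9 CPM in Smad4 Vil-KO libraries and between 53.8 and 86.9 CPM in double-knockout libraries (log2 fold change -0.77, edgeR adjusted p = 0.00756). Smad4, floxed in both, lay between 54.2 and 92.6 CPM and between 38.2 and 113.7 CPM (log2 fold change 0.13, edgeR adjusted p = 0.819). Among the 6 libraries described next the log2 fold change of Setd2 was -1.04 (edgeR adjusted p = 0.000246) and that of Smad4 was -0.70 (edgeR adjusted p = 0.0507). Counts over a whole gene do not show whether part of it was deleted, so that these levels leave the deletion of either gene unchecked. The paper reports efficient loss of both proteins in double-knockout intestinal epithelium by staining and Western blot, data not analysed here. Double-knockout replicates 1, 2 and 5 had 4907, 4745 and 3857 counts in sum of Ddx3y, Eif2s3y, Uty and Kdm5d, which lie on the Y chromosome, and the other 6 libraries had at most 28. No Smad4 Vil-KO library was among those 3, so that what these counts mark and the genotype cannot be told apart within them, and where a call or its size moved, values are also given for the 6 libraries with few Y-linked counts (4 Smad4 Vil-KO against 2 double knockout) or with a term for the Y-linked libraries. Double-knockout replicate 5 lay closest to the Smad4 Vil-KO libraries on the first principal component (4.11, where its group reached 55.0 and the other group lay between -47.8 and -36.0). Epithelial markers such as Epcam and Cdh1 summed to 12052 to 13820 CPM and to 11256 to 13230 CPM in the 2 genotypes. Of 9 tested markers of enterocytes of the small intestine, 7 were called higher and 0 lower in the double knockout, and the list of 12 summed to 229 to 290 CPM against 504 to 1119 CPM. The 9 tested markers had a median log2 fold change of 4.53. The sums understate this, since they hold Fabp2, which was not called, at 184 to 251 CPM against 164 to 278 CPM. In bulk RNA, fewer cells of a type and less RNA per cell cannot be told apart.

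Of the 3 receptors, 0 were called. Notch1, a main receptor of the crypt base, was at 46.2, 44.2, 46.4 and 47.3 CPM across Smad4 Vil-KO replicates 1 to 4 and 46.8, 38.7, 40.8, 39.4 and 49.2 CPM across double-knockout replicates 1 to 5. The Smad4 Vil-KO libraries were nearly the same, and 3 of the 5 double-knockout libraries lay below all of them while replicate 5 was the highest of all 9. The difference was -0.10 on the log2 scale (95% interval -0.30 to 0.10, edgeR adjusted p = 0.491). Notch2, which acts beside Notch1 in the crypt, was at 13.6, 15.6, 16.4 and 19.0 CPM and at 20.6, 19.2, 14.6, 15.2 and 10.5 CPM. Both the highest and the lowest of its 9 values were in double-knockout libraries, and the log2 fold change was -0.01 (95% interval -0.43 to 0.40, edgeR adjusted p = 0.976).

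Notch3, a receptor best known from the smooth muscle and pericytes of blood vessels, had the fewest counts of the 10 genes, with 9 to 20 counts in a Smad4 Vil-KO library and 11 to 46 in a double-knockout library. It was at 0.576, 1.07, 1.23 and 1.19 CPM over the Smad4 Vil-KO replicates and at 2.94, 2.77, 0.768, 1.33 and 0.929 CPM over the double-knockout replicates. Double-knockout replicates 1 and 2 were above all other libraries and the remaining 3 lay within or near the Smad4 Vil-KO range. The log2 fold change of 0.79 had a 95% interval of -0.21 to 1.79 (edgeR adjusted p = 0.261) and was 0.05 among the 6 libraries with few Y-linked counts. Markers of smooth muscle and pericytes summed to 10.4 to 13.9 CPM and 10.7 to 12.1 CPM, with 0 called of the 1 that was tested and the other 7 at most 1.66 CPM in any library. The tested one, the pericyte receptor Pdgfrb, was at 8.89 ± 1.07 and 9.60 ± 1.43 CPM (mean ± SD, n = 4 and 5). Among the 6 libraries with few Y-linked counts 1 of 2 tested was called lower, where 10.1% of all genes were called lower. With no filter, and without Smad4 Vil-KO replicate 1, there was also 1 called lower. Acta2, a smooth muscle actin of the list, was at 0.576 to 1.66 CPM and at 0 to 0.497 CPM.

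**Figure D1:**
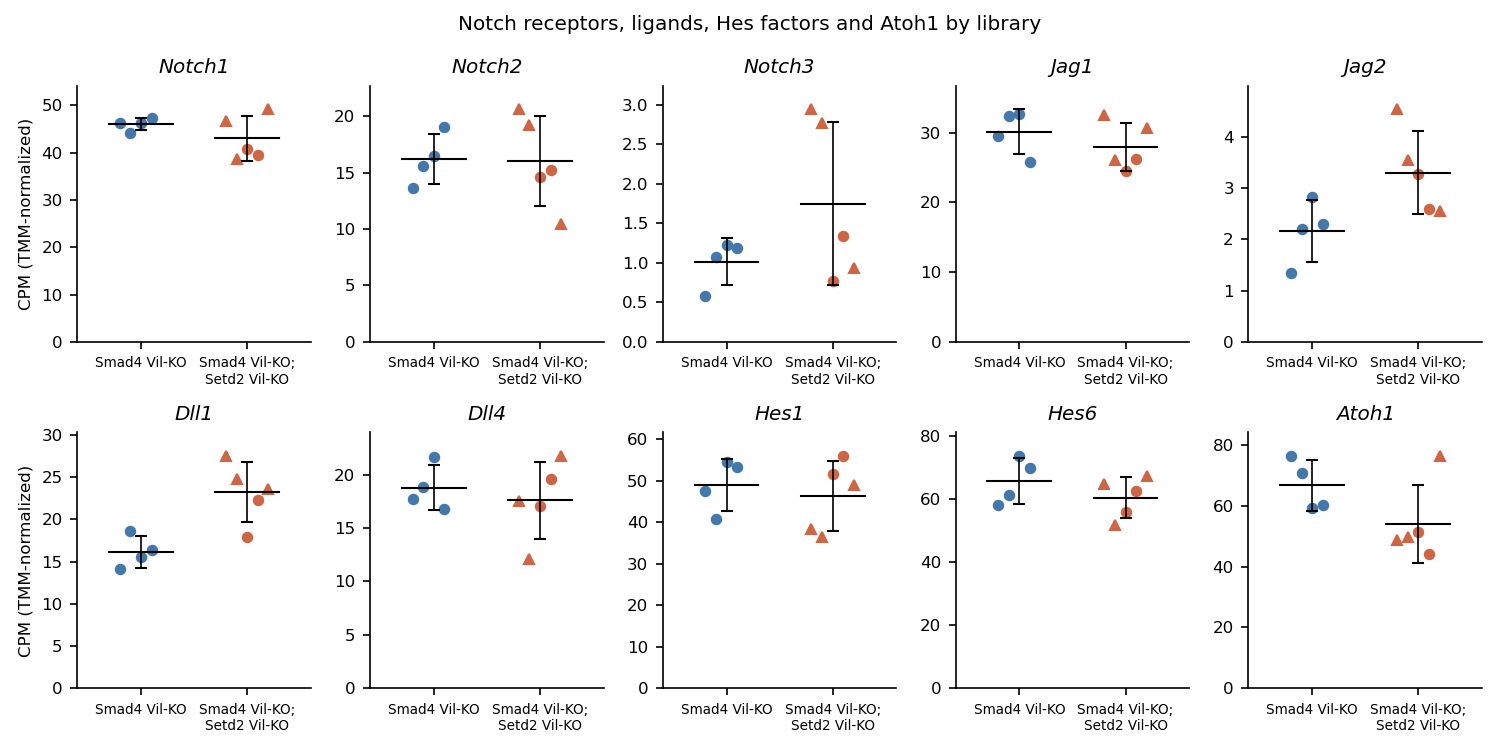
Level of each of the 10 genes in each library, in TMM-normalized CPM on linear axes from 0. Circles are libraries with few Y-linked counts, triangles the 3 libraries with over 100 such counts, and lines with bars the mean ± SD of a genotype (4 Smad4 Vil-KO in blue, 5 double knockout in orange); 4 of the 5 double-knockout libraries lie above every Smad4 Vil-KO library for Dll1, and 1 triangle stands far above the other double-knockout libraries for Atoh1.

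Of the Jagged ligands, 0 were called. Jag1, the ligand with the most counts in both genotypes, was at 29.6, 32.5, 32.7 and 25.8 CPM over the Smad4 Vil-KO replicates and at 32.6, 26.1, 24.5, 26.2 and 30.7 CPM over the double-knockout replicates, and the ranges covered each other almost entirely (log2 fold change -0.11, 95% interval -0.36 to 0.14, edgeR adjusted p = 0.555). Jag2 was at 1.35, 2.20, 2.82 and 2.30 CPM and at 4.54, 3.55, 3.28, 2.59 and 2.55 CPM. Double-knockout replicates 1, 2 and 3 were above all Smad4 Vil-KO libraries, and replicates 4 and 5 lay below Smad4 Vil-KO replicate 3. The log2 fold change of Jag2 was 0.61 (95% interval 0.01 to 1.22), with an unadjusted p of 0.0474 and an adjusted p of 0.159 by the edgeR test, so that it did not pass. Jag2 rested on 21 to 46 counts per Smad4 Vil-KO library and 33 to 71 per double-knockout library.

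Dll1 and Dll4 are the Delta-like ligands of the intestine, which act together to maintain the stem cells and which Atoh1-positive progenitors display. Dll1 was at 14.1, 18.6, 15.6 and 16.3 CPM across Smad4 Vil-KO replicates 1 to 4 and 27.5, 24.8, 17.9, 22.3 and 23.5 CPM across double-knockout replicates 1 to 5. Of the 5 double-knockout libraries, 4 exceeded every Smad4 Vil-KO library, and replicate 3 lay just below Smad4 Vil-KO replicate 2. The log2 fold change was 0.52 (standard error 0.14, 95% interval 0.22 to 0.83, edgeR adjusted p = 0.0308). Among the 6 libraries with few Y-linked counts it was 0.32 (95% interval -0.01 to 0.65, adjusted p = 0.156), and with each library left out in turn it was 0.46 to 0.61. The call was lost in 6 of those 9 fits, without Smad4 Vil-KO replicate 1, 3 or 4 and without double-knockout replicate 1, 2 or 4, with adjusted p up to 0.0894. Dll4 was at 17.7, 18.8, 21.6 and 16.8 CPM and at 17.5, 12.1, 17.1, 19.6 and 21.8 CPM, with double-knockout replicates 2 and 5 as its lowest and highest values and a log2 fold change of -0.09 (95% interval -0.45 to 0.26, edgeR adjusted p = 0.73). Dll4 is also a ligand of sprouting blood vessels, and endothelial markers summed to 9.81 to 10.7 CPM and 7.81 to 12.2 CPM, with 0 of 3 tested markers called and the other 5 at most 1.15 CPM in any library.

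The promoters of Dll1, the ligand that rose, and of Nrarp, the feedback inhibitor of Notch described further on, are shown because Dll1 was the member called higher and Nrarp the inhibitor whose call as higher held in all 18 alternative fits. Each is the 250 bases before the RefSeq start site in GRCm38.p6, printed 5′ to 3′ on the strand of the gene, with E-boxes (CANNTG, the letters bound by basic helix-loop-helix factors such as Atoh1) in capitals. The Dll1 window is chr17:15376933-15377182 on the minus strand and overlaps an exon of the antisense transcript A930024N18Rik, and the Nrarp window is chr2:25180508-25180757 on the plus strand with no annotated exon.
Dll1: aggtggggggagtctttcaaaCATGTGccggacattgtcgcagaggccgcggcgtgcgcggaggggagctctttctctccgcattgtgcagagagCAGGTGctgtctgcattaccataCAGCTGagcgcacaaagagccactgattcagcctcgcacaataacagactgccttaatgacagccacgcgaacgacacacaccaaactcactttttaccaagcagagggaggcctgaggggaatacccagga
Nrarp: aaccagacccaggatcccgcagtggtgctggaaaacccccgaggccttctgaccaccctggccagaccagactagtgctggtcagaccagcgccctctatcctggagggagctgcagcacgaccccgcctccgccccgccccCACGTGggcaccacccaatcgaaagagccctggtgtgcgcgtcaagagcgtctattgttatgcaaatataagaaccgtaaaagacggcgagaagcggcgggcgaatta
The Dll1 window holds 3 E-boxes and the Nrarp window holds 1. The pattern CANNTG reads the same on both strands and was found in 66.22% of all 32851 RefSeq promoter windows of that length. Of the 9 of the 10 genes that had a RefSeq window, 3 held an E-box (1 in Jag1, 3 in Dll1, 3 in Hes6). The core letters of the RBPJ site, TGGGAA on either strand, were in 0 of the 9 windows and in 21.59% of all windows. The N-box, CACNAG on either strand, whose letters Hes repressors bind, was in 4 of the 9 (Notch1, Notch2, Notch3 and Dll4) and in 36.67% of all, and no N-box overlapped an E-box in the windows shown. These are matches of letters and nothing about binding was measured.

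Of the 3 transcription factors, 0 were called. Hes1 was at 47.5, 40.6, 54.4 and 53.3 CPM across Smad4 Vil-KO replicates 1 to 4 and 38.5, 36.4, 51.5, 56.0 and 48.9 CPM across double-knockout replicates 1 to 5. Double-knockout replicates 1 and 2 were the lowest of the 9 libraries and replicate 4 was the highest. Its log2 fold change was -0.08 (95% interval -0.40 to 0.23, edgeR adjusted p = 0.729) and turned to 0.14 among the 6 libraries with few Y-linked counts (95% interval -0.13 to 0.41). Hes6 was at 57.9, 61.2, 73.6 and 69.7 CPM and at 64.6, 51.6, 55.9, 62.3 and 67.3 CPM, with overlapping ranges (log2 fold change -0.12, 95% interval -0.35 to 0.11, edgeR adjusted p = 0.459).

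Atoh1 was at 76.4, 70.8, 59.3 and 60.1 CPM across Smad4 Vil-KO replicates 1 to 4 and 48.6, 49.7, 51.3, 44.1 and 76.4 CPM across double-knockout replicates 1 to 5. Double-knockout replicates 1 to 4 were below every Smad4 Vil-KO library, and replicate 5 was level with the highest of them. The mean was 66.7 ± 8.37 CPM against 54.0 ± 12.8 CPM (SD, n = 4 and 5), with a log2 fold change of -0.30 (95% interval -0.64 to 0.04) that did not pass the edgeR test (adjusted p = 0.211). Without double-knockout replicate 5 the log2 fold change was -0.45 and passed (adjusted p = 0.0169; 9.08% of all genes were called lower in that fit), and among the 6 libraries with few Y-linked counts, which also leave out that replicate, it was -0.48 and passed (adjusted p = 0.0281; 10.1% of all genes were called lower there). With the replicate number as a block, where double-knockout replicate 5 has no partner, it was -0.45 and passed (edgeR adjusted p = 0.0377). In that fit 5.69% of all genes were called lower. With a term for the Y-linked libraries the log2 fold change of Atoh1 was -0.48 and did not pass (adjusted p = 0.146). Of the other members among these 6 libraries, Notch1 had a log2 fold change of -0.19, Notch2 -0.11, Jag1 -0.25, Jag2 0.45, Dll4 -0.03 and Hes6 -0.15, and none of them passed (adjusted p from 0.131 to 0.894).

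**Figure D2:**
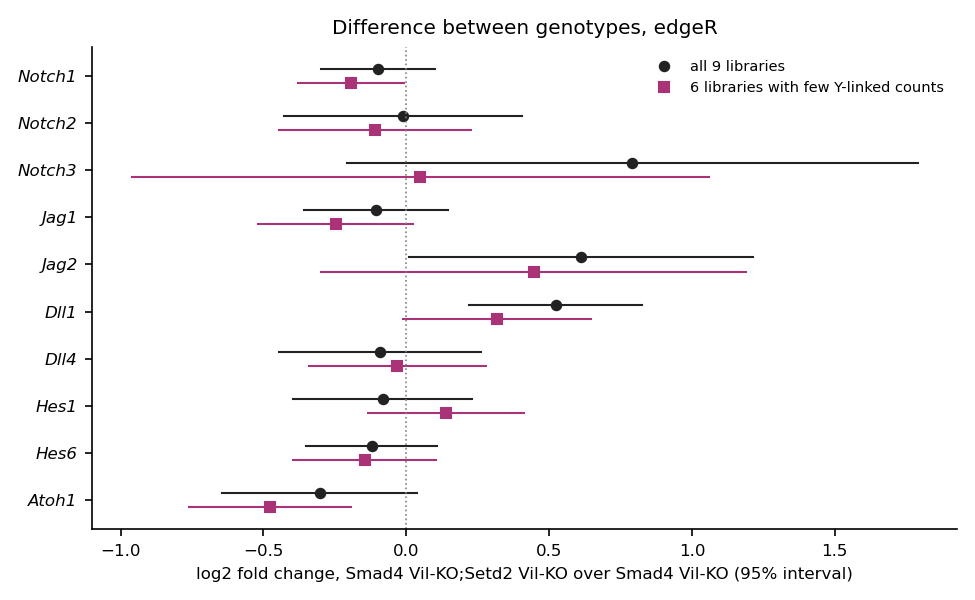
Log2 fold change of each of the 10 genes, double knockout over Smad4 Vil-KO, from edgeR. Black circles use all 9 libraries and purple squares the 6 libraries with few Y-linked counts, with 95% intervals as lines; with all 9 libraries the intervals of Dll1 and Jag2 lie above 0, and with the 6 libraries those of Notch1 and Atoh1 lie below 0.

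Since Hes1 represses Atoh1, their counts were set against each other within each library, where normalization between libraries plays no part. There were 62.1, 57.4, 91.8 and 88.8 Hes1 counts per 100 Atoh1 counts in Smad4 Vil-KO replicates 1 to 4 and 79.1, 73.4, 100.4, 126.9 and 63.9 in double-knockout replicates 1 to 5. The log2 ratio of Hes1 to Atoh1 averaged -0.45 ± 0.35 (SD, n = 4) and -0.22 ± 0.39 (SD, n = 5), and the difference of 0.23 was smaller than the SD of either genotype. It was 0.09 to 0.34 with 1 library left out, lowest without double-knockout replicate 4. Among the 6 libraries with few Y-linked counts it was 0.62, above both SDs, and the 2 double-knockout libraries (replicates 3 and 4) exceeded every Smad4 Vil-KO library. The difference was not tested. Within each genotype the library with the highest Atoh1 level (Smad4 Vil-KO replicate 1 and double-knockout replicate 5) also had the highest sum of 10 goblet cell markers, 31777 CPM and 14702 CPM, an observation made after the values were seen. The single gene Clca1 gave 15991 CPM and 6729 CPM of these sums.

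Levels were compared between genes only per length of exon, as CPM per kilobase. In Smad4 Vil-KO IECs Hes6 led at 49.1, above Hes1 at 33.4 and Atoh1 at 31.4, which overlapped each other. Jag1 (5.37), Dll4 (5.0), Notch1 (4.85) and Dll1 (4.51) followed with overlapping ranges, and then Notch2 (1.54), Jag2 (0.424) and Notch3 (0.127) at levels that did not overlap their neighbours. In double-knockout IECs the order was kept except for Dll1, which stood at the head of the group of Dll1 (6.48), Jag1 (4.99), Dll4 (4.70) and Notch1 (4.53), again with overlapping ranges between neighbours. Hes6 was at 45.2, Hes1 at 31.5, Atoh1 at 25.5, Notch2 at 1.52, Jag2 at 0.647 and Notch3 at 0.218 CPM per kilobase in these IECs.

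**Figure D3:**
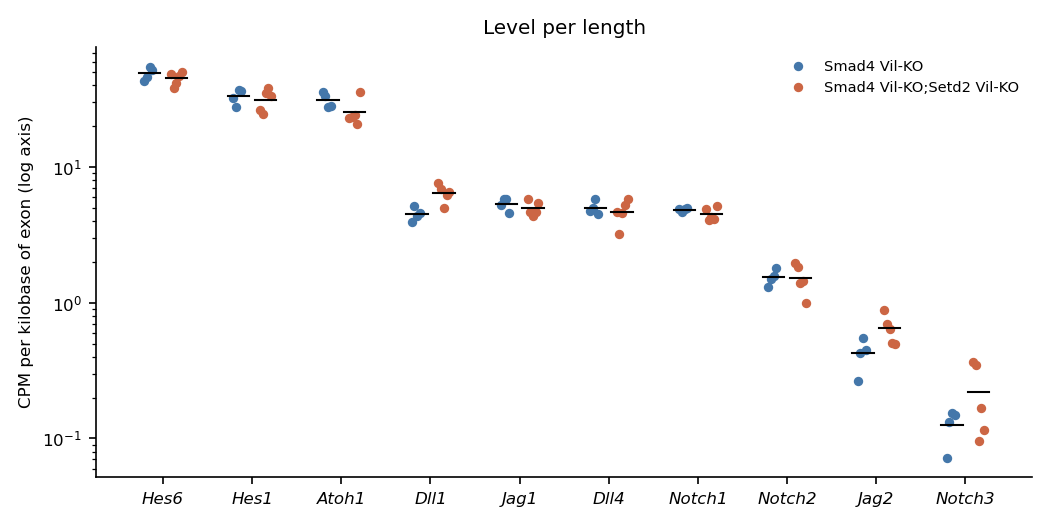
Level of the 10 genes per length, in CPM per kilobase of exon on a log axis, ordered by the mean over all 9 libraries. Points are libraries (Smad4 Vil-KO in blue, double knockout in orange) and lines are means; Hes6, Hes1 and Atoh1 form an upper group from 20.8 to 55.2 CPM per kilobase, and Notch3 is lowest.

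The other genes of the pathway, 56 in 6 lists, gave 43 that could be tested, of which 3 were called higher and 4 lower (16.3% called, against 13.3% of all genes), with a median log2 fold change of -0.000845. DESeq2 called 7 of them lower, where it called 9.12% of all genes lower, and the 3 further calls were of enzymes and ligases described next. The remaining receptors and ligands Notch4, Dll3, Dlk1 and Dlk2 were at most 0.736 CPM in any library and none was tested. Of the protease and its partners, which cut the receptor, 9 of 10 were tested and 0 called by edgeR (0 higher and 3 lower at an unadjusted p under 0.05), with log2 fold changes from -0.32 to 0.19. Of the enzymes that add sugars to the receptor and the ligases that take up the ligand, 0 of 9 were called higher and 1 lower, and 5 were lower at an unadjusted p under 0.05, which 30.6% of all genes passed in either direction. DESeq2 called 4 of the 9 lower, adding Poglut1 (log2 fold change -0.37), Rfng (-0.36) and Mib2 (-0.60), with adjusted p of 0.0388 to 0.0459. The gene called by edgeR was Neurl1b, a ligase for ligand uptake, which fell from 41.8 ± 8.69 to 23.5 ± 8.49 CPM, with a log2 fold change of -0.83 (edgeR adjusted p = 0.0444), with groups that overlapped. Its call was lost in 7 of the 9 fits with 1 library left out, all but those without double-knockout replicate 2 or 5 (adjusted p up to 0.128), and its log2 fold change was -1.29 among the 6 libraries with few Y-linked counts (adjusted p = 0.00228).

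The genes that turn over or inhibit the receptor held 4 of the 7 calls, 3 higher and 1 lower of 9 tested, where 6.76% of all genes were called higher and 6.54% lower. Nrarp, a target of the receptor that destabilizes its intracellular domain, was at 21.9, 30.6, 25.6 and 23.5 CPM over the Smad4 Vil-KO replicates and at 41.1, 33.7, 47.3, 46.6 and 47.3 CPM over the double-knockout replicates. All 5 double-knockout libraries were above all 4 Smad4 Vil-KO libraries, and the log2 fold change was 0.76 (standard error 0.13, edgeR adjusted p = 0.00522) and 0.88 with the Y-linked term (adjusted p = 0.00863). Dtx4 and Dtx3, members of the Deltex family of ubiquitin ligases, moved in opposite directions. Dtx4 rose from 33.3 ± 3.22 to 51.1 ± 12.4 CPM (log2 fold change 0.62, edgeR adjusted p = 0.031), with double-knockout replicates 1 and 2 at 68.8 and 59.4 CPM and the others at 40.5 to 44.4 CPM. Dtx3 fell from 6.87 ± 1.31 to 2.88 ± 0.349 CPM without overlap (log2 fold change -1.25, edgeR adjusted p = 0.003). Numbl, a relative of the Notch inhibitor Numb, rose from 0.578 ± 0.323 to 1.88 ± 0.440 CPM (log2 fold change 1.66, edgeR adjusted p = 0.0224), while Numb itself had a log2 fold change of -0.04 (95% interval -0.22 to 0.14). The calls of Nrarp and Dtx3 held with any 1 library left out, that of Numbl was lost without Smad4 Vil-KO replicate 3 (adjusted p = 0.0792), and that of Dtx4 without any Smad4 Vil-KO library or double-knockout replicate 2 (up to 0.0899). The log2 fold change of Dtx4 was 0.35 among the 6 libraries with few Y-linked counts (adjusted p = 0.0447). Its call was lost with the Y-linked term (0.35, adjusted p = 0.232) and with the replicate number as a block (adjusted p = 0.0522).

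In the nuclear complex, 0 of 14 genes were called higher and 2 lower, both of them co-repressors of the TLE family that Hes factors recruit. Tle3 was at 46.3, 54.3, 44.7 and 50.4 CPM and at 32.6, 29.2, 22.1, 27.3 and 36.4 CPM, so that every double-knockout library was below every Smad4 Vil-KO library (log2 fold change -0.73, standard error 0.13, edgeR adjusted p = 0.00685). Tle2 fell from 3.34 ± 0.539 to 1.08 ± 0.605 CPM (log2 fold change -1.62, edgeR adjusted p = 0.0167), a call lost without Smad4 Vil-KO replicate 3 (adjusted p = 0.0576). The fall of Tle2 was smaller among the 6 libraries with few Y-linked counts (log2 fold change -0.98, adjusted p = 0.0523) and with the Y-linked term (-0.99, adjusted p = 0.0922), and passed in neither. Rbpj, the DNA-binding partner of the receptor, was at 34.4 ± 3.34 and 34.8 ± 1.77 CPM (log2 fold change 0.02, 95% interval -0.18 to 0.21). Of the other Hes and Hey genes, 2 of 10 were tested and 0 called (Hes2 and Bhlhe40), the rest were at most 0.707 CPM in any library, and Helt had no count in any.

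**Figure D4:**
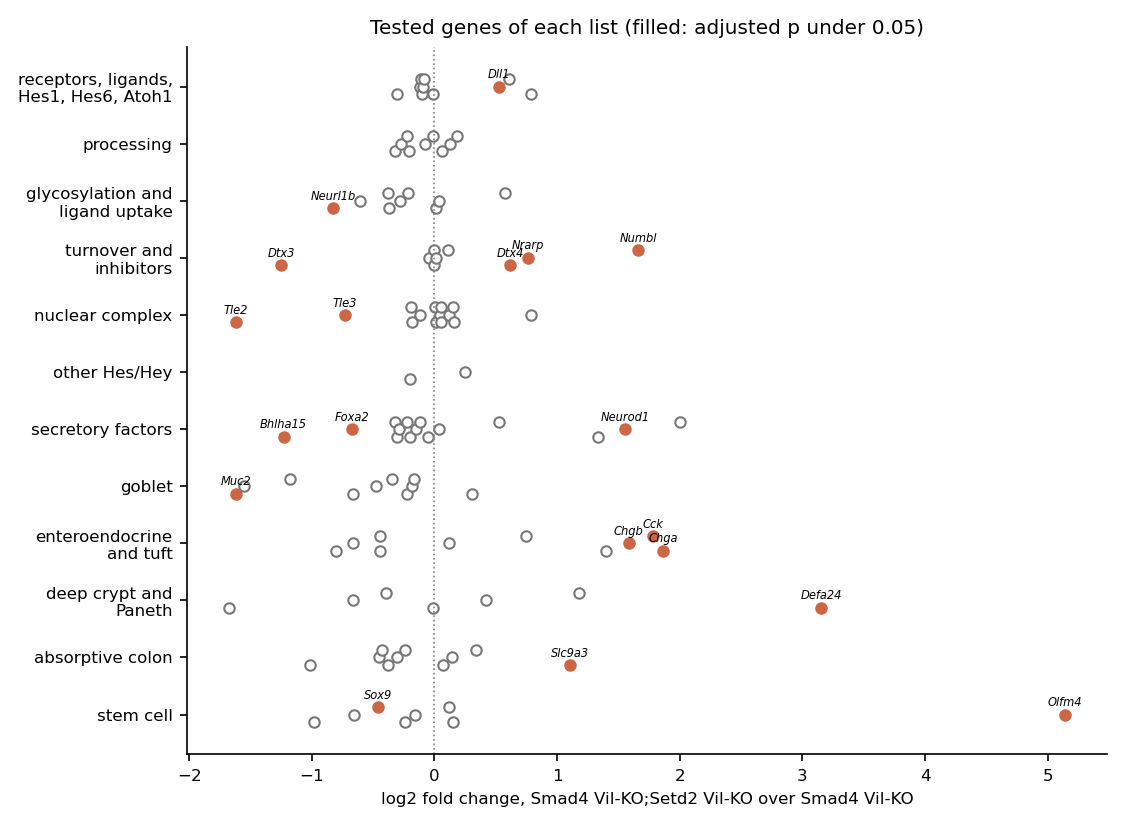
Log2 fold change of each tested gene by list, double knockout over Smad4 Vil-KO, with filled points at an edgeR adjusted p under 0.05 and those genes named. The uppermost row holds the 10 genes described here with Dll1 filled, and the row of turnover and inhibitor genes holds 4 filled points, 3 to the right of 0 and 1 to the left.

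Genes of the lineages on either side of the Hes1 and Atoh1 decision were read from 6 lists of 61 genes, of which 60 were tested, 7 called higher and 4 lower (18.3% called, against 13.3% of all genes), with a median log2 fold change of -0.21. Among the 6 libraries with few Y-linked counts 9 were called higher and 13 lower, where 19.4% of all genes were called, and with calls by size (over 1.5-fold) and unadjusted p (under 0.05) they were 11 and 9, where 13.8% of all genes were called. Of the transcription factors of the secretory lineages 1 of 15 was called higher and 2 lower. Neurod1, a factor of enteroendocrine cells, rose from 0.849 ± 0.276 to 2.53 ± 1.04 CPM (log2 fold change 1.56, edgeR adjusted p = 0.0205), and its exons overlap those of Cerkl on the same strand, which had 0 to 4 counts in Smad4 Vil-KO libraries and 7 to 26 in double-knockout libraries. Foxa2, which acts in goblet and enteroendocrine cells, fell from 36.5 ± 3.54 to 22.9 ± 3.74 CPM (log2 fold change -0.67, edgeR adjusted p = 0.00737). Bhlha15, a factor of mature secretory cells known as Mist1, fell from 10.5 ± 1.82 to 4.49 ± 1.77 CPM (log2 fold change -1.23, edgeR adjusted p = 0.0155). The call of Neurod1 was lost without Smad4 Vil-KO replicate 1, 3 or 4 (adjusted p up to 0.0741) and that of Bhlha15 without Smad4 Vil-KO replicate 1 (0.0515) and with the Y-linked term (0.0887), while among the 6 libraries with few Y-linked counts Bhlha15 passed (log2 fold change -1.12, adjusted p = 0.016).

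Of 10 goblet cell markers 1 was called, as lower, and 9 had a negative log2 fold change. Muc2, the secreted mucin of goblet cells, was at 7541, 5374, 6790.0 and 4827 CPM over the Smad4 Vil-KO replicates and at 1669, 2753, 1870.0, 1698 and 2007 CPM over the double-knockout replicates. All double-knockout libraries were well below all Smad4 Vil-KO libraries (log2 fold change -1.62, standard error 0.18, edgeR adjusted p = 0.000542), including replicate 5, in which Atoh1 was high. Of 10 enteroendocrine and tuft markers 3 were called higher and 0 lower. The 2 kinds of marker lay on opposite sides of 0, the 6 enteroendocrine genes with positive and the 4 tuft genes with negative log2 fold changes. Chga, a granin of enteroendocrine cells, rose from 14.4 ± 3.41 to 52.7 ± 10.8 CPM (log2 fold change 1.87, edgeR adjusted p = 0.000405), Chgb rose with a log2 fold change of 1.58 (adjusted p = 0.00165) and Cck with one of 1.78 (adjusted p = 0.0148, 0.0535 without Smad4 Vil-KO replicate 3, 0.0934 with the Y-linked term and 0.0386 with the 6 libraries alone). The 6 enteroendocrine genes summed to 68.6 to 94.1 CPM in Smad4 Vil-KO libraries and 156.8 to 236.5 CPM in double-knockout libraries. The 4 tuft genes Dclk1, Trpm5, Avil and Sh2d6 summed to 47.9 to 81.6 CPM in Smad4 Vil-KO libraries, and to 16.3, 24.5, 42.7, 35.6 and 89.9 CPM over the double-knockout replicates. Double-knockout replicates 1 to 4 were below every Smad4 Vil-KO library for this sum and replicate 5 was above all of them, the split between libraries seen for Atoh1. None of the 4 passed the edgeR test with all 9 libraries and no covariates (log2 fold changes from -0.80 to -0.44, unadjusted p from 0.135 to 0.281) and DESeq2 called none of them. By edgeR 3 were called lower without double-knockout replicate 5 (Trpm5 -1.37, Sh2d6 -0.94 and Avil -0.75, adjusted p up to 0.0411). Among the 6 libraries with few Y-linked counts 2 were called lower (Trpm5 -0.78 and Sh2d6 -0.77, adjusted p up to 0.043).

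Of 7 tested deep crypt and Paneth markers 1 was called higher (Defa24, one of a family of near-identical genes whose reads the counting could split) and 0 lower, while 4 had negative log2 fold changes. By DESeq2 1 was called higher and 1 lower, and by limma-voom 0 and 1. Among the 6 libraries with few Y-linked counts they were 2 and 1. Of 10 absorptive markers of the colon 1 was called higher (Slc9a3, the sodium-proton exchanger, 245 ± 49.8 to 528 ± 212 CPM, log2 fold change 1.11, edgeR adjusted p = 0.0188) and 0 lower, while 6 had negative log2 fold changes. Among those 6 libraries 2 of the 10 were called higher and 3 lower, where 9.29% and 10.1% of all genes were called. Of 8 stem cell markers 1 was called higher and 1 lower. Olfm4, which is known as a Notch target of the stem cells of the small intestine, was at 0.512, 2.97, 0.858 and 1.59 CPM and at 5.37, 15.4, 94.6, 97.4 and 52.3 CPM (log2 fold change 5.14, standard error 0.91, edgeR adjusted p = 0.00568). Every double-knockout library was above every Smad4 Vil-KO library. The 2 double-knockout libraries lowest for Olfm4, replicates 1 and 2, were the 2 lowest for Hes1, an observation made after the values were seen. Both are among the libraries with Y-linked counts, and a link between Olfm4 and Hes1 was not tested. Sox9, a factor of crypt cells, fell from 74.9 ± 3.85 to 54.6 ± 10.8 CPM (log2 fold change -0.46, edgeR adjusted p = 0.0439), and Lgr5 was at 36.7 ± 13.4 and 23.3 ± 7.18 CPM (adjusted p = 0.136). With 1 library left out, the call of Defa24 was lost in 4 of 9 fits (Smad4 Vil-KO replicate 1, 2 or 3 and double-knockout replicate 4, adjusted p up to 0.0738), that of Slc9a3 in 3 (Smad4 Vil-KO replicate 2, 3 or 4, up to 0.058) and that of Sox9 in 8, all but the fit without double-knockout replicate 5 (up to 0.114). With the Y-linked term the calls of Slc9a3 (log2 fold change 0.63, adjusted p = 0.145) and Sox9 (-0.44, adjusted p = 0.15) were lost. Among the 6 libraries with few Y-linked counts Slc9a3 had a log2 fold change of 0.64 (adjusted p = 0.024) and Sox9 one of -0.43 (adjusted p = 0.0121), and both passed. The call of Olfm4 held with any 1 library left out and was lost with limma-voom (adjusted p = 0.113), as was that of Defa24 (adjusted p = 0.0704). The log2 fold change of Olfm4 was 4.82 to 5.78 with 1 library left out and 6.0 both with the Y-linked term (edgeR adjusted p = 0.0016) and with the 6 libraries alone (1.07e-05), and that of Defa24 went from 3.15 to 3.97 with the 6 libraries alone (0.0027). The markers of the small intestine were higher in the same genotype as Olfm4 and Chga, and their part in these differences was not tested.

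**Figure D5:**
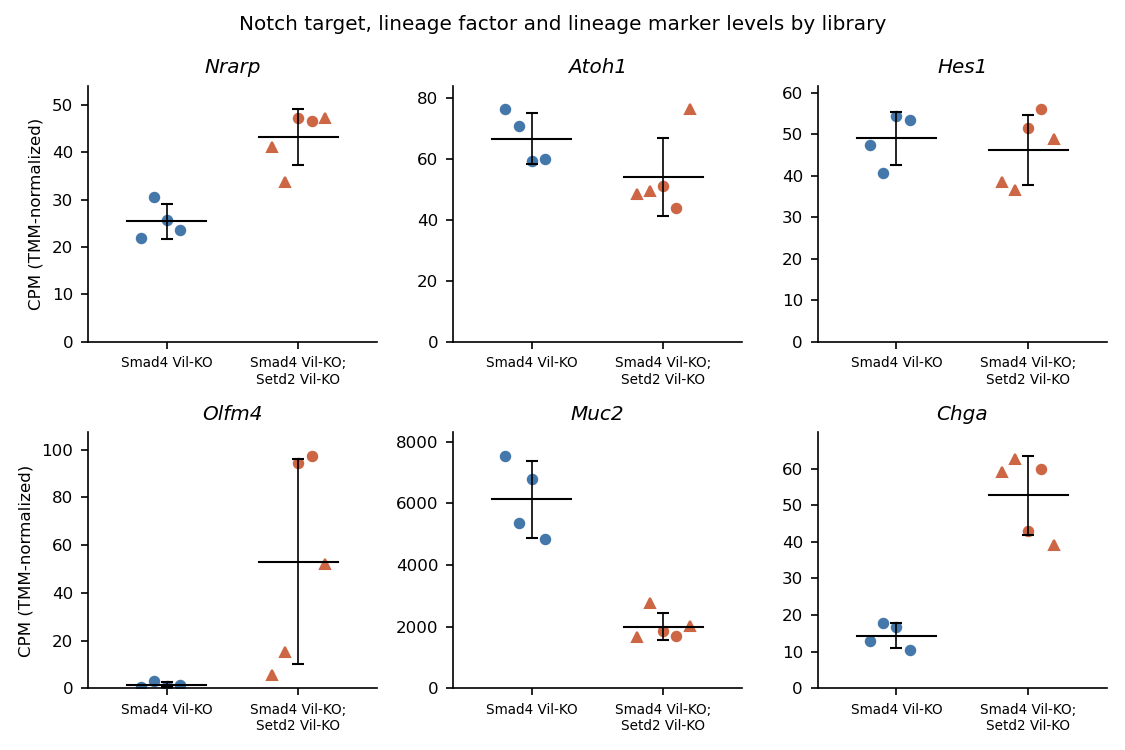
Level of the Notch target and inhibitor Nrarp, of Atoh1 and Hes1, and of Olfm4 (stem cell), Muc2 (goblet) and Chga (enteroendocrine) in each library, in TMM-normalized CPM on linear axes from 0. Symbols and bars are as in the plot of the 10 genes by library; the genotypes are separate for Nrarp, Olfm4, Muc2 and Chga and overlap for Atoh1 and Hes1.

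Markers of other cells that carry Notch components were also read. The fibroblast list summed to 10.8 to 25.9 CPM and 18.7 to 57.7 CPM, with 0 of 4 tested genes called by edgeR and 2 higher at an unadjusted p under 0.05. Dcn, which encodes the matrix proteoglycan decorin, was called higher among the 6 libraries with few Y-linked counts (log2 fold change 1.74, edgeR adjusted p = 0.0193). Dcn was also called with DESeq2, without double-knockout replicate 5 and with the replicate number as a block (adjusted p up to 0.0187). Pdgfra, a receptor of fibroblasts whose counts were too low for the test, had 1, 2, 4 and 3 counts over the Smad4 Vil-KO replicates and 47, 23, 12, 5 and 1 over the double-knockout replicates. It was highest in double-knockout replicates 1 and 2, the libraries in which Notch3 was highest, and with no filter on low counts it was called higher (log2 fold change 2.80, edgeR adjusted p = 0.0446). The immune list was not low, with sums of 115 to 234 CPM and 101 to 153 CPM, and held Ptprc, the common leukocyte antigen, at 22.2 to 56.2 CPM over the 9 libraries. Of its 8 genes 1 was called, Cd14, a receptor of macrophages, which was at 44.3 to 93.0 CPM and fell (log2 fold change -0.62, edgeR adjusted p = 0.0152). Itgam and Csf1r, macrophage genes of the same list, were at 3.20 to 10.2 and 1.28 to 7.45 CPM and were not called. The call of Cd14 was lost among the 6 libraries with few Y-linked counts (-0.52, adjusted p = 0.0591) and with the Y-linked term (-0.53, adjusted p = 0.0944). The glial list summed to 0.771 to 1.99 CPM and 0.628 to 1.08 CPM, with Sox10 at 0 in every library. Their part in the levels of Notch3, Jag2 and Dll1 was not tested.

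The genes whose levels followed a member most closely over the 9 libraries were found among 10888 genes of at least 5 CPM and are given as a description, since the 9 points share their genotypes and their libraries. For Dll1 these were Aim1 (Pearson r = 0.97), Ttc1 (0.96) and Hmgn2-ps1 (0.95), a pseudogene whose reads may belong to its parent. For Atoh1 they were 5031439G07Rik (r = 0.96), Auts2 (0.94) and Mfsd6 (0.94). For Hes1 they were Nqo2, Il11ra1 and Ttr, each at r = 0.93.

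In GRCm38, Notch1, Jag1 and Dll4 lie on chromosome 2 and Notch3 and Dll1 on chromosome 17. Dll1 spans chr17:15367354-15376872 on the minus strand and Atoh1 chr6:64729125-64731245 on the plus strand, Hes1 lies at chr16:30064384-30067796 (plus) and Hes6 at chr1:91411483-91414038 (minus). Of the other ligands, Dll4 lies at chr2:119325784-119335962 (plus), Jag1 at chr2:137081456-137116644 (minus) and Jag2 at chr12:112907819-112929776 (minus). The receptors lie at chr2:26457903-26516663 (Notch1, minus), chr3:98013527-98150361 (Notch2, plus) and chr17:32120820-32166852 (Notch3, minus). Exons of Notch1, Notch2, Notch3, Dll1 and Dll4 overlap exons of other annotated genes, all but that of Notch2 on the opposite strand. Whether the counting used strand is not given in the sources used here, so reads of such pairs could not be told apart. Of the partners in the table, 0610009E02Rik beside Notch1 had 2 to 18 counts, few beside those of Notch1. Gm14207 beside Dll4 had 29 to 66 counts, 10.6% to 28.2% of those of Dll4 in the same library. The other partners, A930024N18Rik beside Dll1 among them, were not analysed here, so that their share of the counts is not known.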

How the data were processed

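RNA-seq of IECs from 4 Smad4 Vil-KO and 5 double-knockout mice was analysed. The authors deposited whole-number counts per gene symbol for each library, with no normalization and no pooling; per the submitters' processing notes the reads were aligned with HISAT2 2.0 to mm10, and the counting program, annotation and use of strand are not given in the sources used here. Of the 46095 symbols 27 read as dates and were tested without a name, and 0 columns belonged to other samples. Each column was given its genotype from the sample labels, and nothing in them says more about the mice than separate samples, so p-values measure the spread between these samples. In all 16 pairs of libraries within a genotype the chi-square of the counts was 10.0 or more per gene, so that the libraries differed beyond sampling noise and all were counted as replicates.

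In R 4.3.3, edgeR 4.0.16 was used to drop genes with low counts (filterByExpr, leaving 14593), to scale the libraries (TMM) and to compare the genotypes by its quasi-likelihood test, without covariates. Adjusted p-values are those of Benjamini and Hochberg over the 14593 genes. Total counts were 12487129 to 17120202, and counting error is only part of the spread (biological coefficient of variation 21.2%). CPM are TMM-normalized, and exon lengths are unions of exons in the basic GENCODE annotation of GRCm38. Hes1 to Atoh1 ratios used a prior count of 0.5. Promoters were the RefSeq sequences of GRCm38.p6, found for 9 of the 10 genes (not Hes1). Figures used matplotlib 3.10.9 in Python 3.11.15.

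The 10 genes and the gene lists were chosen with earlier results of these data known. The genes named are the 10 members, Setd2 and Smad4, and other list genes with an adjusted p under 0.05. For a list with more than 5 the rule was the 5 with the largest changes and at least 1 CPM. The small intestine list alone held more than 5, and its called genes were given as a count without names. Also named are the 3 genes of at least 5 CPM with the highest Pearson r to Hes1, Atoh1 and Dll1 (log2 CPM, prior count 2). Any other gene was named after its values were seen. Alternatives were DESeq2 1.42.0, limma-voom (limma 3.58.1), DESeq2 size factors, library size alone, no filter, a minimum of 10 counts per library, leaving out libraries singly, the replicate number as a block, calls by fold change (1.5) and unadjusted p (0.05), a term for libraries with over 100 Y-linked counts, and the libraries at or under that number alone. The tests were tried on simulated counts for this comparison with 200 of 14690 genes changed: edgeR recovered 84 of 100 genes changed 2-fold and 99 of 100 changed 3-fold with 7 false calls. RT-qPCR, histology, ChIP and cell line data of the study were not analysed here.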

Additional observations from a re-analysis of the deposited data

Results flagged for a closer look

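A check for 1 library far from the rest of its genotype was made for 38 genes in 75 groups of 4 or 5 libraries, of which chance marks about 1 in 20, and it marked 2. Atoh1 was at 76.4 CPM in double-knockout replicate 5, where the next library of that genotype was at 51.3 CPM and the lowest at 44.1 CPM, so that the gap took 0.778 of the range. The same library had the highest goblet marker sum of its genotype (14702 CPM against 5106 to 9439 CPM) and the value nearest to the other genotype on the first principal component (4.11). Of that sum of 14702 CPM, 6729 CPM came from the single gene Clca1. Smad4 was at 92.6 CPM in Smad4 Vil-KO replicate 1, where the other 3 libraries lay between 54.2 and 55.3 CPM (gap 0.97 of the range).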

How the results depend on the processing

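Of the counts of calls under the alternatives, 92 were within 1.5 times of the reported ones and 22 moved further. The Hes1 to Atoh1 difference (0.23 on the log2 scale) ranged from 0.09 to 0.34 with 1 library left out and was 0.62 with the few-Y libraries alone. The number of the 10 genes called higher went from 1 to 0 with the Y-linked term, with the few-Y libraries alone, and ranged from 0 to 1 with 1 library left out; the number called lower went from 0 to 1 (Atoh1) with the few-Y libraries alone and ranged from 0 to 1. Pathway genes called lower went from 4 to 7 with DESeq2 and ranged from 2 to 5 with 1 library left out, and those called higher from 1 to 4, both lowest without Smad4 Vil-KO replicate 3. Lineage genes called higher went from 7 to 3 with a minimum of 10 counts per library and to 11 with the fold change rule, and those called lower from 4 to 13 with the few-Y libraries alone and to 9 with the fold change rule; with 1 library left out they ranged from 3 to 10 and from 3 to 10, lowest for higher calls without Smad4 Vil-KO replicate 3 and highest for lower calls without double-knockout replicate 5. The cause was not tested.

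The log2 fold change of Notch2 turned to 0.030 with library size alone and ranged from -0.12 to 0.12 with 1 library left out, that of Dll4 ranged from -0.17 to 0.019, and that of Hes1 turned to 0.13 with the Y-linked term and 0.14 with the few-Y libraries alone; these 3 genes passed no test in any fit. Notch3 had too few counts for the filter of 10 counts and had no value there.

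The labels do not say whether the replicate numbers pair the mice. Same-numbered libraries had correlations of -0.096, -0.104, 0.02 and 0.088 of their deviations, which cannot decide whether mice were paired. The paper states that littermates given the same treatment served as controls, and which libraries came from littermates is not given. With the number as a block, 0 of the 10 genes were higher and 1 lower (Atoh1, log2 fold change -0.45, adjusted p = 0.0377), Notch2 had a log2 fold change of 0.10, and 7 lineage genes were lower, where 5.69% of all genes were called lower.

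Over all genes, 986 were higher and 955 lower, against 1406 and 1524 with the few-Y libraries alone, 653 and 632 with the Y-linked term and 455 and 392 without Smad4 Vil-KO replicate 3, the lowest of the fits. Leaving out Smad4 Vil-KO replicate 1 gave 509 and 509, replicate 2 gave 599 and 605, replicate 4 gave 620 and 563, and there were 654 and 619 without double-knockout replicate 4.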
